A study of Mus musculus with 6 samples.

Results

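Integrins, cadherins and connexins are 3 families of membrane proteins by which a cell holds its surroundings and its neighbours, and 30 mouse genes of these families were examined in primary uterine stromal cells with and without Pbrm1. The members were 12 integrin α subunits, 6 integrin β subunits, 7 cadherins and 5 connexins, chosen by gene symbol out of 54232 genes in the count table. Epithelial Cdh1, endothelial Cdh5 and the leukocyte integrins were not among them. All 30 were found in the table, and all 30 had counts and entered the test.

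The cells came from uterine horns of mice 8 to 12 weeks of age on day 4 of pseudopregnancy, the day of uterine receptivity. Per the labels, 5 to 10 horns were digested for a preparation, the dispersed cells were plated for 4 h, and RNA was prepared 2 h after a change of medium. The labels name the groups WT and Pbrm1 cKO, with 3 samples each. According to the methods of the study, the controls were Pbrm1 fl/fl mice and the knockout mice were Pbrm1 fl/fl with PR-IRES-cre/+. Floxed alleles were then shared by both groups, and Cre was driven by the progesterone receptor gene, which is active in the uterine epithelium and muscle as well as in the stroma. The study calls the 3 replicates of its sequencing tracks in these cells biological, while the labels do not say which animals went into each preparation, and p-values measure the spread between these preparations. Pbrm1, on chromosome 14, encodes a subunit of the SWI/SNF chromatin remodeler. Its normalized counts (raw counts divided by the size factors of DESeq2) were 1354, 1385 and 1677 in WT and 396.6, 458.6 and 451.3 in Pbrm1 cKO, which is 29.6% of the WT mean.

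Each integrin is a pair of an α and a β subunit, and the α subunit largely sets the ligand. α1, α2, α10 and α11 pair with β1 and bind collagens, α3, α6 and α7 bind laminins, and α5, α8 and αv recognise the Arg-Gly-Asp (RGD) motif of fibronectin, vitronectin and related matrix proteins. Cadherins join like cells through calcium-dependent contacts and are tied to actin by catenins, whereas connexins form the gap junction channels through which ions and small molecules pass. In the uterus, integrins are studied as markers of receptivity, and the connexin 43 encoded by Gja1 couples stromal cells as they turn into decidual cells.

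Total counts were 13253575 to 18338667 per library, and a count of 0 allowed up to 3 counts, or 0.164 to 0.226 CPM (counts scaled to library size), which covers counting error only. The genotypes separated on the first principal component (92.1% of variance), and WT replicate 1 stood away from WT replicates 2 and 3 on the second (5.59%). Replicates spread unequally, with a common biological coefficient of variation from edgeR of 0.169 in WT and 0.0481 in Pbrm1 cKO. Median squared differences between libraries were 3.68 to 7.95 times counting error in WT and 1.55 to 2.54 times in Pbrm1 cKO. DESeq2 fitted a shared dispersion per gene, so the spread behind the p-values came mostly from WT. The 13 stromal markers had summed normalized counts of 71272 to 81504 in WT and 67250 to 72420 in Pbrm1 cKO, with 5 called lower, 1 called higher and none at or under 3 counts in all libraries of a group. Leukocyte markers summed to 4356 to 9443 in WT and 37484 to 38789 in Pbrm1 cKO, and 12 of 14 were called higher. Of that list, Nkg7 was at or under 3 counts in every library. Epithelial markers summed to 1968 to 3557 and 3482 to 3653, with 3 of 16 called higher and Foxa2 at or under 3 counts throughout. In such mixed preparations, fewer cells of a type and less RNA per cell cannot be told apart.

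Upstream sequences of 5 integrin genes are shown because these genes carry the main contrasts described further on. Itga5 and Itgav were the most abundant α subunit genes and both rose, Itga2 and Itga1 are collagen receptor genes that moved in opposite directions, and Itgb1 encodes the β subunit that most of them share. The sequences are the 250 bases before the RefSeq start of each gene in GRCm38.p6. They lie at chr15:103366792-103367041 on the minus strand, chr2:83724147-83724396 on the plus strand, chr13:114932101-114932350 on the minus strand, chr13:115101965-115102214 on the minus strand and chr8:128685404-128685653 on the plus strand, and are printed 5′ to 3′ on the strand of the gene. Capitals mark matches, on either strand, to the GC box letters GGGCGG or the TEAD letters GGAATG.
Itga5: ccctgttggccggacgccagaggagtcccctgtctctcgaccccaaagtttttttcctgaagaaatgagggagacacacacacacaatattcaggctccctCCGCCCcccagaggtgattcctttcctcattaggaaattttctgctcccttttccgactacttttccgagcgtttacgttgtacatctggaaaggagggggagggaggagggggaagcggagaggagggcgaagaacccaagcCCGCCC
Itgav: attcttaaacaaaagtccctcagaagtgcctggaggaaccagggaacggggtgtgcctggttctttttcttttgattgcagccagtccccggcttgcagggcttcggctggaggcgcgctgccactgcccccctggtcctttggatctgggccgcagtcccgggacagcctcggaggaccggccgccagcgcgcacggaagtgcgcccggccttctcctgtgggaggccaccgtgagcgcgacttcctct
Itga2: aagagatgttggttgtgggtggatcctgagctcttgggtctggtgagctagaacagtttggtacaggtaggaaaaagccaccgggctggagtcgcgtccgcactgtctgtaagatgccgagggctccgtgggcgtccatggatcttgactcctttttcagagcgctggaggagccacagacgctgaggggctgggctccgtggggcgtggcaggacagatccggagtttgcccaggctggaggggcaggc
Itga1: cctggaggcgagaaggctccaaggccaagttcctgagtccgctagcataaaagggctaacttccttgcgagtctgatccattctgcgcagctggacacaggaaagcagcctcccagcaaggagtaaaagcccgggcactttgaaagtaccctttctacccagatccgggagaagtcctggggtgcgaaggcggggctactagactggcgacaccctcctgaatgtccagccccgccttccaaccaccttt
Itgb1: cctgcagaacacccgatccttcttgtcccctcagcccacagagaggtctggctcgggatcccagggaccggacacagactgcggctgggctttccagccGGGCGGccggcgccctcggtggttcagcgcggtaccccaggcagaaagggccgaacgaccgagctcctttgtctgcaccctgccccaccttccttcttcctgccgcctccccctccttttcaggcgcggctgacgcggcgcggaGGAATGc
Of the 30 members, 20 had an entry in the RefSeq promoter table, and for 16 of these the RefSeq start lay within 100 bases of the start in the count table. GGGCGG was present in 9 of these 20 (45%), against 32.9% of 27025 promoters of the same length. The TATA box letters TATAAA were in none of the 20, against 13% of all promoters, and GGAATG was in 3 (15%) against 12.6%. The AP-1 letters TGANTCA were found only in the Gja1 window, which is 1 of 20 against 6.87% of all promoters. Median GC content was 59.6% for the members and 52% for all promoters. Itga5 held 2 GC boxes and Itgb1 held 1, whereas the windows of Itgav, Itga2 and Itga1 held none of the motifs searched. A match is a run of letters and does not show that a factor was bound.

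The loss of Pbrm1 went with a change in 16 of the 30 adhesion genes. By DESeq2 at an adjusted p below 0.05, 6 members were higher and 10 were lower in Pbrm1 cKO, and 14 were not called. The called share was 53.3%, beside 31.1% of the 17474 genes tested, where 15.9% were higher and 15.2% were lower. At a mean of 50 normalized counts or more, 40.9% of tested genes were called, beside 12 of the 22 members at that level. The values of the groups did not overlap for 16 members (53.3%), beside 48.6% of all tested genes. The median log2 fold change was -0.07 over the members and -0.000744 over all tested genes, whereas the median absolute change was 0.75 and 0.37. All 6 genes that rose were integrins. The genes that fell comprised 5 integrins, 3 cadherins and 2 connexins. The plot of fold changes by class shows that no cadherin or connexin was called higher.

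**Figure D1:**
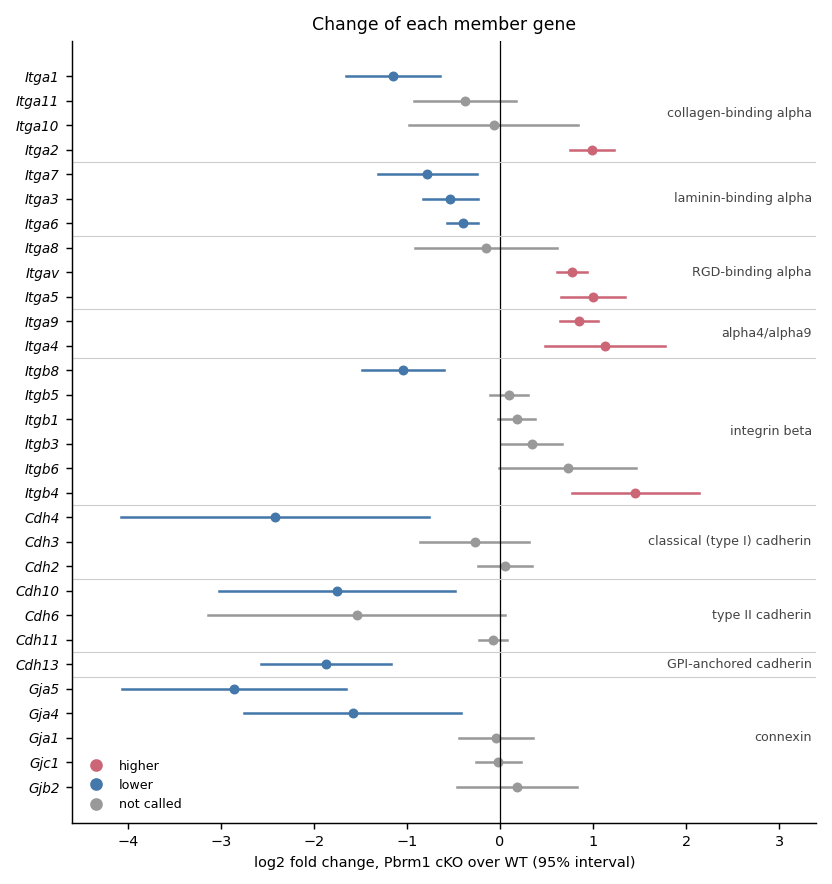
Log2 fold change of each of the 30 genes, Pbrm1 cKO over WT, as a point with its 95% interval from DESeq2, grouped by family and ligand class and coloured by call. All called changes to the right of 0 are integrins, and the widest intervals belong to Cdh4, Cdh6, Gja5, Cdh10 and Gja4, which are of low abundance.

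The RGD-binding and α4/α9 subunits included 4 of the 5 α genes that rose. Itga5 encodes α5, the chief fibronectin receptor subunit. Its normalized counts were 5823, 5818 and 9479 in WT and 14485, 14383 and 13318 in Pbrm1 cKO. Every Pbrm1 cKO library lay above every WT library, although WT replicate 3 was well above the other WT libraries. The log2 fold change was 1.00 (SE 0.17, adjusted p = 1.29e-07 by DESeq2), or 2.00-fold. Itgav encodes αv, which forms vitronectin receptors with β3 or β5 and can release active TGF-β with β6 or β8. Itgav measured 9604, 9481 and 10365 in WT and 17462, 16964 and 15883 in Pbrm1 cKO. The groups stood clear of each other, and the increase was 0.77 on the log2 scale (SE 0.08, adjusted p = 3.59e-18). Itga8, also an RGD-binding subunit, was scarce, at 21.6 to 36.3 in WT and 24.7 to 29.1 in Pbrm1 cKO, and was not called (log2 fold change -0.15, 95% interval -0.92 to 0.61).

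Itga9 encodes α9, a receptor subunit for tenascin-C and osteopontin. It measured 517.3, 564.9 and 540.5 in WT and 983.6, 983.6 and 947.7 in Pbrm1 cKO. Replicates were close within each genotype and the groups were far apart (log2 fold change 0.85, SE 0.10, adjusted p = 1.33e-14). Itga4 encodes α4, which binds VCAM-1 and fibronectin and is also carried by many leukocytes. Its counts were 45.96, 153.2 and 139.4 in WT and 253.5, 245.3 and 241.1 in Pbrm1 cKO. WT replicate 1 was the lowest, and no WT library reached the Pbrm1 cKO range. The log2 fold change was 1.13 (SE 0.33, adjusted p = 0.00297), and without WT replicate 3 the call was lost (1.31, adjusted p = 0.0796). Without WT replicate 1 it was 0.75 (adjusted p = 0.000188). The leukocyte marker sum was also lowest in WT replicate 1 and higher in all Pbrm1 cKO libraries, and its part in the increases of Itga4, Itga5, Itgav and Itga9 was not tested.

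Among the collagen-binding subunits, Itga2 rose and Itga1 fell. Itga2 encodes α2, a receptor for fibrillar collagens. It measured 796.3, 1005 and 1019 in WT and 1973, 1823 and 1799 in Pbrm1 cKO. The groups did not overlap, and the log2 fold change was 0.99 (SE 0.12, adjusted p = 2.25e-14). Itga1 encodes α1, which favours the collagen IV of basement membranes. It measured 159.3, 317.4 and 305.9 in WT and 122.3, 127.8 and 101.3 in Pbrm1 cKO. WT replicate 1 was again the lowest WT library but stayed above all Pbrm1 cKO libraries. Itga1 fell by 1.15 on the log2 scale (SE 0.26, adjusted p = 7.19e-05), and by 1.41 without WT replicate 1. The length-scaled ratio of Itga2 to Itga1 was 13, 8.26 and 8.69 in WT and 42.1, 37.2 and 46.3 in Pbrm1 cKO. These 2 genes are neighbours on chromosome 13, both on the minus strand, at chr13:114833081-114932100 for Itga2 and chr13:114953096-115101964 for Itga1 in the coordinates of the count table. Itga11, a fibrillar collagen receptor of fibroblasts, measured 55.6 to 82.1 in WT and 48.7 to 59.2 in Pbrm1 cKO, and Itga10, known from cartilage, measured 12.8 to 29.2 and 18.8 to 24.8. Both overlapped between groups and neither was called.

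All 3 laminin-binding α subunits fell. Itga6 encodes α6, which pairs with β1 or β4. It measured 2862, 2758 and 2583 in WT and 2077, 2052 and 2075 in Pbrm1 cKO. The groups did not overlap, and the decrease was small but well above the spread (log2 fold change -0.40, SE 0.09, adjusted p = 2.66e-05). Itga3, whose product pairs with β1 as a receptor for several laminins, measured 753.5, 556 and 555.6 in WT and 450.9, 436.3 and 401.6 in Pbrm1 cKO. All Pbrm1 cKO libraries were below all WT libraries (log2 fold change -0.53, SE 0.15, adjusted p = 0.00267). Itga7, best known as the laminin receptor of muscle, measured 71.61, 68.81 and 68.1 in WT and 39.46, 43.15 and 38.47 in Pbrm1 cKO. Its groups stood apart with close replicates (log2 fold change -0.78, SE 0.27, adjusted p = 0.0165). The Itga7 call was lost on leaving out any library other than WT replicate 3, at log2 fold changes of -0.74 to -0.83, with adjusted p of 0.0546 without WT replicate 1, 0.0605 without WT replicate 2, and 0.0786, 0.0607 and 0.0786 without Pbrm1 cKO replicates 1, 2 and 3. Smooth muscle markers summed to 56860 to 61791 in WT and 53953 to 55981 in Pbrm1 cKO, with 5 of 12 called lower and Myocd at or under 3 counts in every library, and their part in the Itga7 result was not tested.

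**Figure D2:**
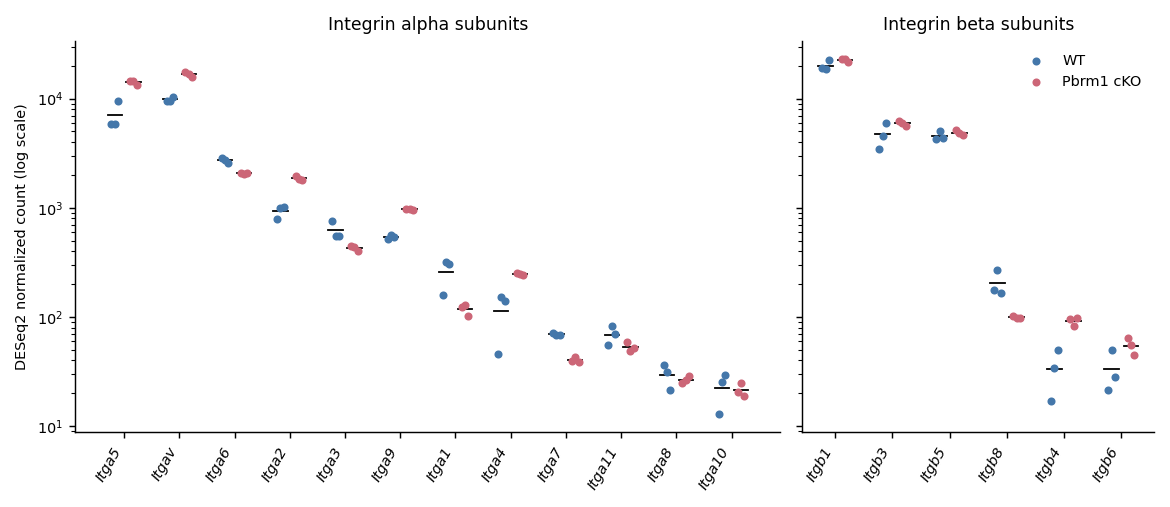
DESeq2 normalized counts of the 12 integrin α and 6 integrin β subunit genes on a log axis, with each library as a point (blue WT, red Pbrm1 cKO, 3 each) and group means as black lines. Itga5, Itgav, Itga2, Itga9 and Itga4 lie higher in every Pbrm1 cKO library, whereas the laminin-binding Itga6, Itga3 and Itga7 lie lower.

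Of the 6 β subunits, 1 was higher, 1 was lower and 4 were not called. Itgb1, the partner of most α subunits, was the most abundant member at 18893, 18733 and 22481 in WT and 23286, 23104 and 21685 in Pbrm1 cKO. The groups overlapped through WT replicate 3, and the log2 fold change was 0.18 (95% interval -0.02 to 0.38, adjusted p = 0.176). Without WT replicate 3, Itgb1 was called higher (0.27, adjusted p = 0.00112). Itgb3, the vitronectin receptor partner of αv, measured 3487, 4580.2 and 6015 in WT and 6257, 5983 and 5568 in Pbrm1 cKO. WT replicate 3 again lay within the Pbrm1 cKO range (log2 fold change 0.34, 95% interval 0.01 to 0.67, adjusted p = 0.119), and without it Itgb3 was called higher (0.55, adjusted p = 5.4e-05), as it was by limma voom (0.38, adjusted p = 0.0399). Without WT replicate 1 the Itgb3 value was 0.16 (adjusted p = 0.299). Itgb5, the other vitronectin receptor partner, measured 4263 to 5079.7 in WT and 4614 to 5149.9 in Pbrm1 cKO and was not called (log2 fold change 0.10, 95% interval -0.10 to 0.30).

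Itgb4 and Itgb8 were the β genes with a call. Itgb8 encodes β8, which with αv takes part in TGF-β activation. It measured 176.4, 268.6 and 167.5 in WT and 101.6, 98.28 and 97.58 in Pbrm1 cKO. The Pbrm1 cKO libraries were nearly identical and lay below all WT libraries (log2 fold change -1.04, SE 0.23, adjusted p = 3.83e-05). Itgb4 encodes β4, the partner of α6 in the hemidesmosomes of epithelia. It measured 17.1, 34.4 and 49.72 in WT and 96.68, 83.1 and 97.58 in Pbrm1 cKO, so that the highest WT library stayed below the lowest Pbrm1 cKO library. The log2 fold change was 1.45 (SE 0.35, adjusted p = 0.000208), and 1.13 without WT replicate 1 (adjusted p = 0.00128). Itgb6, an epithelial partner of αv, measured 21.4 to 49.9 in WT and 45 to 64.1 in Pbrm1 cKO and was not called (adjusted p = 0.134), although it was called higher without WT replicate 2 (1.14, adjusted p = 0.0237). WT replicate 1 had the lowest epithelial marker sum (1968) and the lowest Itgb4 and Itgb6 counts of the WT libraries. The part of epithelial cells in these counts was not tested.

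Levels of different genes were compared as TPM (counts divided by exon length and scaled to a fixed sum). On this scale all tested genes moved by a median of 0.20 (log2) toward Pbrm1 cKO, so these levels serve to order genes within a group and not to compare the groups, and shares and ratios were formed within each library. Itga5 led the α subunits in both groups and Itgav followed, with means of 269 and 172.2 TPM in WT and of 617.9 and 338.4 TPM in Pbrm1 cKO. Itga6 came next in WT, at 57.1 against 24.8 for Itga2, whereas in Pbrm1 cKO Itga2 (56.7) stood above Itga6 (49.6). Itgb1 led the β subunits ahead of Itgb5 and Itgb3, at 925.3, 241.8 and 149.6 TPM in WT and 1205, 298.1 and 218.1 TPM in Pbrm1 cKO. Itgb8 stood above Itgb4 in WT (3.46 and 0.90) and below it in Pbrm1 cKO (1.94 and 2.85).

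The RGD-binding α subunits took 75.8%, 75.4% and 81.6% of the summed α transcripts in WT and 85.7%, 86% and 85.4% in Pbrm1 cKO. Within that class, the mean share of Itga5 was 46.8% in WT and 55.3% in Pbrm1 cKO, whereas Itgav held 30.7% and 30.3% with overlapping libraries and Itga8 held 0.139% and 0.0706%. The laminin-binding subunits took 16.7%, 15% and 11.1% in WT and 5.9%, 5.91% and 6.23% in Pbrm1 cKO. The sum to which these shares refer was 567 TPM in WT and 1116 TPM in Pbrm1 cKO, so a share is not a measure of its genes' own change, and Itga6 stood at 75.6% of its WT mean in normalized counts. Neither share overlapped between groups, and WT replicate 3 was the WT library nearest to Pbrm1 cKO in both. The collagen-binding share was 5.48% ± 0.91 in WT (SD, n = 3) and 5.48% ± 0.17 in Pbrm1 cKO. Within it the mean share of Itga2 was 4.42% in WT and 5.08% in Pbrm1 cKO, with overlapping libraries. The mean shares of Itga1 (0.467% and 0.122%), Itga11 (0.453% and 0.201%) and Itga10 (0.143% and 0.0801%) were smaller in Pbrm1 cKO, with overlap for Itga10. Within the β family, Itgb1 took 70% ± 2.46 in WT and 69.8% ± 0.51 in Pbrm1 cKO.

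**Figure D3:**
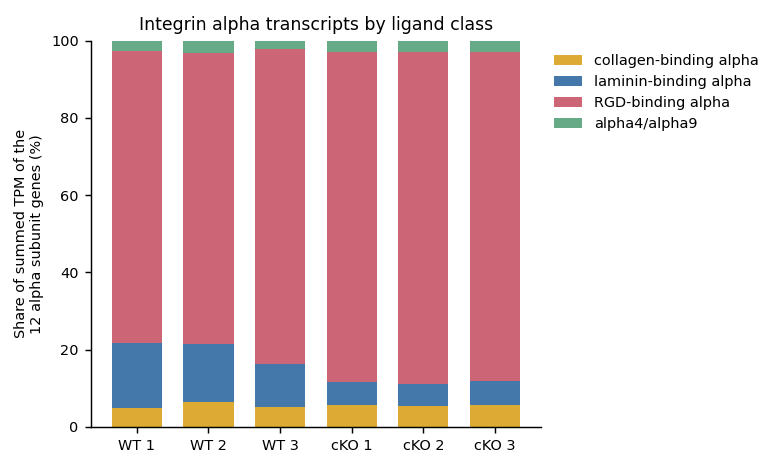
Share of each ligand class in the summed TPM of the 12 integrin α subunit genes, as percent, with 1 stacked bar per library. The laminin-binding part is 11.1% to 16.7% in WT and 5.9% to 6.23% in Pbrm1 cKO, and the RGD-binding part is larger in all Pbrm1 cKO libraries.

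Ratios between partner subunits, chosen after the values were seen, described the same contrast within each library. Per unit length, Itga5 stood to Itgb1 at 0.255, 0.257 and 0.349 in WT and 0.515, 0.515 and 0.508 in Pbrm1 cKO. Itgav stood to Itgb5 at 0.745, 0.617 and 0.787 in WT and 1.12, 1.15 and 1.14 in Pbrm1 cKO. Itga6 stood to Itgb1 at 0.0685, 0.0666 and 0.052 in WT and 0.0403, 0.0402 and 0.0433 in Pbrm1 cKO. None of these ratios overlapped between groups, while the ratio of Itgav to Itgb3 came close, at 0.946 to 1.51 in WT and 1.53 to 1.57 in Pbrm1 cKO. These are transcript ratios, and subunits at the cell surface were not measured. Dividing by exon length does not remove a trend of the libraries with gene length, which these ratios and the shares above keep. With that trend removed, the log2 fold change was 0.62 for Itgav and 0.13 for Itgb5, beside 0.77 and 0.10 in the main fit.

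The cadherins were dominated by Cdh11, which was not called, while Cdh13, Cdh4 and Cdh10 fell at low counts. Cdh11 encodes the type II cadherin of mesenchymal cells and made up 94.1% ± 0.15 of cadherin transcripts in WT (SD, n = 3) and 94.8% ± 0.12 in Pbrm1 cKO. Its normalized counts were 11912, 11348 and 11921 in WT and 11343, 11304 and 10626 in Pbrm1 cKO. The groups did not overlap but were separated by less than the spread within either, and Cdh11 was not called (log2 fold change -0.08, 95% interval -0.23 to 0.07, adjusted p = 0.486). With the length trend of each library removed it was called lower (-0.21, adjusted p = 0.0106). Cdh2, the N-cadherin of mesenchymal and neural cells, measured 463.9, 339.6 and 416.2 in WT and 413.4, 444.3 and 404.4 in Pbrm1 cKO, with full overlap (95% interval -0.24 to 0.34). Cdh3, which encodes P-cadherin, measured 46.6 to 65.9 in WT and 38.5 to 51.1 in Pbrm1 cKO and was not called.

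Cdh13 encodes T-cadherin, which is anchored to the membrane by a lipid and lacks the catenin-binding tail. It measured 75.89, 220.9 and 149.2 in WT and 44.4, 35.16 and 42.22 in Pbrm1 cKO. All WT libraries were higher, though they spread widely with WT replicate 1 the lowest (log2 fold change -1.87, SE 0.36, adjusted p = 1.78e-06). Cdh4, or R-cadherin, measured 9.62, 17.76 and 22.7 in WT and 5.92, 0 and 3.75 in Pbrm1 cKO. Cdh10, a type II cadherin known from brain, measured 23.51, 15.54 and 12.97 in WT and 6.91, 4 and 4.69 in Pbrm1 cKO. Both were called lower without overlap, at log2 fold changes of -2.42 (SE 0.85, adjusted p = 0.0168) and -1.75 (SE 0.65, adjusted p = 0.0245).

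The Cdh4 call was lost without WT replicate 2 (adjusted p = 0.0999), WT replicate 3 (0.14), Pbrm1 cKO replicate 2 (log2 fold change -1.79, adjusted p = 0.107) or Pbrm1 cKO replicate 3 (0.0568), and without Pbrm1 cKO replicate 1 the log2 fold change was -3.22. The Cdh10 call was lost without WT replicate 1 (adjusted p = 0.143), WT replicate 2 (0.0673), Pbrm1 cKO replicate 2 (0.129) or Pbrm1 cKO replicate 3 (0.0898), at log2 fold changes of -1.47, -1.83, -1.58 and -1.68. Cdh6, a type II cadherin of kidney and mesenchyme, measured 6.41, 18.87 and 12.97 in WT and 0.987, 7.19 and 4.69 in Pbrm1 cKO, and its interval of -3.14 to 0.05 left it uncalled.

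**Figure D4:**
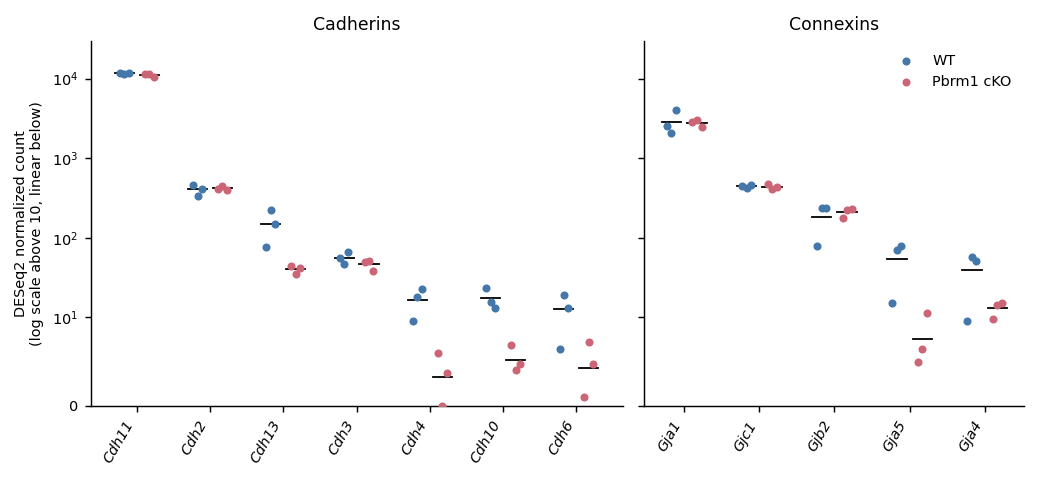
DESeq2 normalized counts of the 7 cadherin and 5 connexin genes, with each library as a point (blue WT, red Pbrm1 cKO, 3 each), group means as black lines and an axis that is logarithmic above 10 and linear below. The abundant Cdh11, Cdh2, Gja1 and Gjc1 lie at like levels in both groups, while Cdh13, Gja5 and Gja4 have most WT points above the Pbrm1 cKO points.

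Of the connexins, the abundant Gja1, Gjc1 and Gjb2 were not called, and the vascular Gja4 and Gja5 fell. Gja1 measured 2512, 2082 and 4028 in WT and 2892, 2992 and 2485 in Pbrm1 cKO. WT libraries lay both below and above all Pbrm1 cKO libraries, and the log2 fold change was -0.04 with a 95% interval of -0.44 to 0.35. Its sign turned on a library, at 0.28 without WT replicate 3 and -0.23 without WT replicate 2, with no call in either fit. Gjc1, which encodes connexin 45, measured 447.9, 421.7 and 459.4 in WT and 470.6, 412.3 and 428.8 in Pbrm1 cKO, and its interval was narrower (-0.26 to 0.22). Gjb2, the connexin 26 gene of epithelium and decidua, measured 78.03, 238.6 and 238.9 in WT and 177.6, 223.7 and 228.9 in Pbrm1 cKO. Its direction turned with the low WT replicate 1, since the log2 fold change was 0.18 over all libraries and -0.18 without it, with no call either way.

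Gja5 and Gja4 encode connexins 40 and 37, which are known from arterial endothelium. Gja5 measured 14.96, 71.03 and 77.83 in WT and 4.93, 6.39 and 11.26 in Pbrm1 cKO. The groups did not overlap, but WT replicate 1 lay close to the Pbrm1 cKO range (log2 fold change -2.86, SE 0.62, adjusted p = 3.26e-05). Gja4 measured 9.62, 57.71 and 50.8 in WT and 9.87, 14.38 and 15.01 in Pbrm1 cKO, so that WT replicate 1 was the lowest of all 6 libraries. Gja4 was called lower (log2 fold change -1.58, SE 0.60, adjusted p = 0.0282). The call was lost without WT replicate 2 (adjusted p = 0.242), WT replicate 3 (0.155) or Pbrm1 cKO replicate 1 (0.142), 2 (0.0908) or 3 (0.0735), at log2 fold changes of -1.21, -1.36, -1.42, -1.66 and -1.69, and limma voom gave an adjusted p of 0.0775.

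Endothelial markers were read beside these genes. The 11 markers summed to 2763, 6527 and 6554 in WT and 3320, 3595 and 2981 in Pbrm1 cKO, with 3 called lower, 1 called higher, 7 not called and a median log2 fold change of -0.61. None of the 11 was at or under 3 counts in all libraries of a group. WT replicate 1 was the lowest library for this sum, as it was among the WT libraries for Cdh13, Gja4, Gja5 and Itga1. Cdh5, the endothelial VE-cadherin gene, did not share that pattern, at 773.9, 712.5 and 676.7 in WT and 190.4, 191.8 and 200.8 in Pbrm1 cKO (log2 fold change -1.89, adjusted p = 2.4e-46). Without WT replicate 1, the log2 fold changes were -2.19 for Cdh13, -2.05 for Gja4 and -3.31 for Gja5, and all 3 were called. The part of endothelial cells in these 3 results and in that of Itga1 was not tested. The 6 pericyte markers summed to 2758 to 4152 in WT and 3693 to 4054 in Pbrm1 cKO, with 1 called higher, 1 called lower and a median log2 fold change of -0.865, and mesothelial markers to 9 to 46 and 53 to 63.

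**Figure D5:**
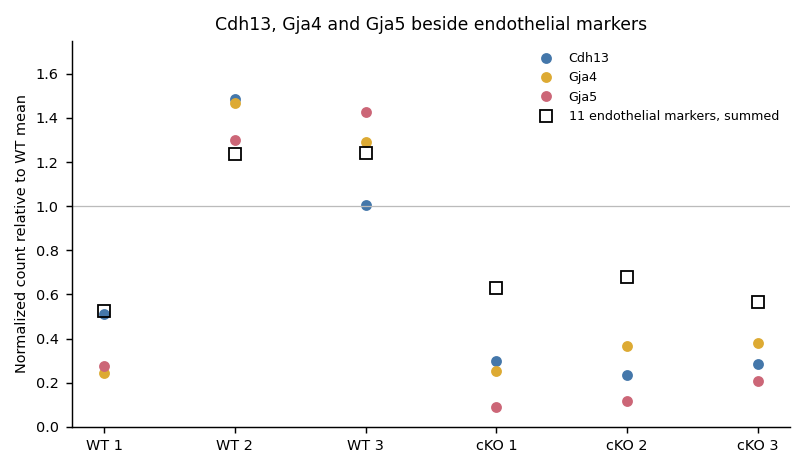
Normalized counts of Cdh13, Gja4 and Gja5 (circles) and the sum of 11 endothelial marker genes (squares) in each library, divided by the WT mean of the same quantity. WT replicate 1 lies below all Pbrm1 cKO libraries for the marker sum and for Gja4, and WT replicates 2 and 3 lie above 1 for all 4 quantities.

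Other genes of these families and of the pathways around them were read from lists with the same fit, which called 31.1% of all tested genes. Of 9 other integrin subunits, 6 were tested and 5 were higher, led by Itgal, Itgax and Itgb2, the leukocyte integrins. Itgal rose from a mean of 7.6 to 146.6 normalized counts (log2 fold change 4.27), Itgax from 10.15 to 149.1 (3.88) and Itgb2 from 370.3 to 1990.1 (2.43), along with the leukocyte marker sum. Of 15 other cadherins, 3 were tested, with Cdh5 lower and the epithelial Cdh1 higher (118.6 to 260.8, log2 fold change 1.14, adjusted p = 0.00308). Of 15 other connexins, 5 were tested by DESeq2, at mean normalized counts of 3.58 to 21.8, and 0 were called or had an unadjusted p below 0.05. edgeR tested 2 of them and called 1.

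Of 24 integrin adaptors, which link the β tail to actin and to kinases, 8 were higher and 4 lower. All 24 had a mean of at least 50 normalized counts, and 50% were called, beside 40.9% of all tested genes at that level. The largest changes were in the kindlin genes Fermt3 (125.9 to 474.5, log2 fold change 1.92), known from blood cells, and Fermt1 (53.09 to 168.6, 1.67), known from epithelia, and in talin 2, Tln2 (124.9 to 256.3, 1.04). Of 30 integrin ligands, 9 were higher and 8 lower (56.7% called). The collagen III gene Col3a1 fell, with means of 13940.5 in WT and 3102 in Pbrm1 cKO (log2 fold change -2.17), while the genes of epithelial laminin chains Lamb3 (30.88 to 183.6, 2.58) and Lama3 (76.82 to 267.8, 1.80) rose. Of 10 catenins and junction scaffolds, 8 were tested, and 2 were higher and 1 lower (37.5% called, near the share of all tested genes). Ctnnb1, which encodes the β-catenin that binds cadherin tails, measured 11006, 10987 and 10835 in WT and 7700.1, 7559.5 and 7348 in Pbrm1 cKO (log2 fold change -0.54, adjusted p = 2.45e-12). The scaffold gene Tjp1 rose (log2 fold change 0.35), and Panx1, which forms channels related to connexins, fell by 0.70 on the log2 scale.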

How the data were processed

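RNA-seq of 3 WT and 3 Pbrm1 cKO preparations of primary uterine stromal cells was analysed from the deposited raw count table. The authors trimmed reads with cutadapt, aligned them to GRCm38 (GRCm38.p5 in the submitters' processing notes) with HISAT2, and counted reads per gene with featureCounts 1.6.4 on GENCODE M18, stranded, without normalization, replicates kept apart. That program by default leaves out reads with several alignments. The labels describe a total RNA kit with depletion, the study's methods an mRNA kit, so the captured RNA classes are uncertain. The deposited table also gives each gene's exon length, used for the TPM values. Symbols were matched for 99.7% of genes.

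Counts were tested with DESeq2 1.42.0 (R 4.3.3; Wald test, no covariates, Benjamini-Hochberg adjusted p below 0.05 over all tested genes, unshrunken fold changes). Adjusted p-values are from DESeq2 unless edgeR 4.0.16 or limma 3.58.1 is named. The fit was tested on simulated data. Means of normalized counts are over 3 libraries, and 95% intervals are 1.96 SE.

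Members and lists were chosen with earlier results of these data known. All members could be named. Other genes were at most the 3 most changed per list, past the threshold, with a mean of at least 50 and no overlap. A gene that this rule would name is left out. Cell type markers were read as whole lists, and markers at the floor of 3 counts were named. The 14 alternatives were edgeR, TMM factors, filterByExpr, no independent filtering, limma voom, a replicate block, removal of the length trend, a test against a log2 fold change of 0.58 and leaving out each of 6 libraries.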

Additional observations from a re-analysis of the deposited data

How the results depend on the processing

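Of the 16 called members, 11 kept their call under every alternative other than the test against a log2 fold change of 0.58, and no called member changed direction. That test, at an adjusted p below 0.1, called 1 member higher (Itga2) and 2 lower (Cdh13 and Gja5), and 699 genes higher and 563 lower over the whole table. Leaving out 1 library at a time gave 6 to 7 members higher and 6 to 8 lower, the lowest count of 6 lower being reached without WT replicate 2, Pbrm1 cKO replicate 2 or Pbrm1 cKO replicate 3. Over all genes the same fits gave 1923 to 2915 higher and 1790 to 2647 lower. Same-numbered libraries did not deviate together (r = 0.0401, -0.0388 and -0.000927). This cannot exclude a pairing, because Pbrm1 cKO libraries differed by only 1.55 to 2.54 times counting error. The labels give no batch, and the samples were treated as unpaired. The fit with a replicate block called 6 members higher and 7 lower (2160 and 1812 over all genes), without Itga7, Cdh10 and Gja4 among the lower. TMM factors kept all 16 calls. edgeR kept 15 and limma voom 14, and neither tested Cdh4, which filterByExpr removed from these fits and from DESeq2 after that filter (15 calls kept), so its call there is without a value and not lost. Of the members, 8 had a mean under 50. Apart from the test against 0.58, the calls lost were those of Itga4, Itga7, Cdh4, Cdh10 and Gja4. Over the 14 alternatives, adjusted p ranged from 0.000188 to 0.821 for Itga4, 0.00447 to 1 for Itga7, 0.00112 to 1 for Itgb1, 5.4e-05 to 1 for Itgb3, 7.73e-06 to 0.164 for Itgb4, 0.0237 to 1 for Itgb6, 0.00595 to 0.669 for Cdh10, 0.0106 to 1 for Cdh11 and 4.63e-05 to 0.812 for Gja4, and over 11 of them from 0.0106 to 0.352 for Cdh4. The causes were not tested.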
